A study of Mus musculus with 15 samples.

Results

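NFAT factors, calcineurin and their regulators were read as 10 mouse genes: Nfatc1, Nfatc2, Nfatc3, Ppp3ca, Ppp3cb, Ppp3r1, Cabin1, Stim1, Dyrk1a and Rcan1. Their members are the 26 probe sets, among 29131 with exactly 1 gene symbol on the arrays (15964 genes), whose symbol equals 1 of these names. RNA came from A.E7 cells, a cloned mouse CD4 T helper line, so every group is 1 clone. The 5 treatments were mock stimulation (Mock), anti-TCR alone, which the array titles call Anergic, and anti-TCR with 1 of 3 inhibitor treatments. The inhibitor treatments were CSA (cyclosporin A), PKCi (a PKC inhibitor that the labels do not name) and Combo (Rapamycin, PD98059 and SB203580 given together), whose textbook targets are mTOR, MEK and p38. Each pool joined RNA from 2, 4 and 6 h and was hybridised to chip types A, B and C, which carry different probe sets. Each treatment therefore has a single array of each chip type, and no difference below has a replicate, an SD over cultures or a test. Doses are not given in the sources used here.

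NFAT proteins are transcription factors that wait, phosphorylated, in the cytoplasm of resting T cells. Engagement of the T cell receptor empties calcium from the endoplasmic reticulum; Stim1 senses the loss and opens the plasma membrane channel, and calmodulin then switches on calcineurin, which strips phosphates from NFAT and lets it enter the nucleus. Calcineurin pairs a catalytic A subunit (Ppp3ca or Ppp3cb) with a regulatory B subunit (Ppp3r1), Cabin1 and Rcan1 bind and restrain it, and the kinase Dyrk1a phosphorylates NFAT again. NFAT that acts without its AP-1 partner is linked to T cell anergy, and cyclosporin A, bound to a cyclophilin, blocks calcineurin.

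Intensities were used as deposited and have no unit beyond the array's own scale. A floor was set at the median intensity within each chip type (51.1, 69.5 and 55.0 for A, B and C), and anything dimmer was set to the floor on taking log2. A probe set counted as measured in a comparison if the brighter array was at least 4 floors high (204.4, 278 and 220), and it rose or fell when the values then lay at least 2-fold apart. The share of probe sets that bright was 17.4% on the lowest array and 23.0% on the highest. Of the 26 member probe sets, 16 were bright with at least 1 treatment, and they read 9 of the 10 genes; the 10 others include the only probe set of Rcan1. Genes read on more than 1 chip type gave a technical SD of the log2 ratio. It was 0.75 where anti-TCR was set against mock, and 0.48 (CSA), 0.71 (PKCi) and 0.55 (Combo) where an inhibitor was set against anti-TCR. It covers arrays and probes and not cultures. Of 9 T helper markers on the arrays (among them Cd3e and Cd4), 8 were bright with at least 1 treatment and Cd5 stayed below the floor (5.5 to 12.1); their summed intensity ran from 7492 with PKCi to 12285 with mock, and the part of that difference in the results was not tested. Of 12 markers of CD8 T, B, macrophage and erythroid cells 0 were bright with any treatment.

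Promoters are shown for Nfatc2 and Nfatc3, which both fell with anti-TCR, and for Ppp3r1, which rose. They come from the RefSeq table for GRCm38.p6, from which 13 windows of 8 of the genes were read. Each runs from 250 bases before a transcription start to 50 after it, 5′ to 3′ on the gene's strand. Capitals mark GGAAA, the core that NFAT binds, on either strand, so that TTTCC is its reverse complement.
Nfatc2, outer start, chr2:168601608-168601907, minus strand: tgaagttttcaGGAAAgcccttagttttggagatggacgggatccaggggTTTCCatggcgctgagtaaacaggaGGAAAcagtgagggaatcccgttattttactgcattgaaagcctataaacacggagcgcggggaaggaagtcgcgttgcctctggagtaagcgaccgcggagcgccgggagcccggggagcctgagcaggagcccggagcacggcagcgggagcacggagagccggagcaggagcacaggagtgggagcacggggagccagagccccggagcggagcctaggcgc
Nfatc2, inner start, chr2:168590316-168590615, minus strand: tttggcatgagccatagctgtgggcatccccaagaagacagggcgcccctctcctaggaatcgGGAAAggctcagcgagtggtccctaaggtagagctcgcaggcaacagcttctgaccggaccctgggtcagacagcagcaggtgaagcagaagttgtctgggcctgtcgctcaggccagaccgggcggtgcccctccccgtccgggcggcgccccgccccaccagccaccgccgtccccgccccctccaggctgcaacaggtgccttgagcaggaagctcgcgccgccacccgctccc
Nfatc3, outer start, chr8:106058568-106058867, plus strand: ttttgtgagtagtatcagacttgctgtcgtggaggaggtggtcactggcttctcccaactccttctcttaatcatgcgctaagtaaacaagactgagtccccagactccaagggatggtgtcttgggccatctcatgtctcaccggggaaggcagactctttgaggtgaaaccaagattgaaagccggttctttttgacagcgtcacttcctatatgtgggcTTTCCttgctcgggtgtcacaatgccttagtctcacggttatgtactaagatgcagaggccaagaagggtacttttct
Ppp3r1, chr11:17159048-17159347, plus strand: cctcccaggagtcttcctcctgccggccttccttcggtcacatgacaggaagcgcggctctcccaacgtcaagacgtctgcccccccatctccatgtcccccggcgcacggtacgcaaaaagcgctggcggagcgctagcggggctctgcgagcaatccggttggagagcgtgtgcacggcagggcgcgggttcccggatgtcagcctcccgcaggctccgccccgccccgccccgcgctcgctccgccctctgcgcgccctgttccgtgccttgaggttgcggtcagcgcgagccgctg
The core occurs 3 times at the outer Nfatc2 start, 1 time at the inner one, 1 time at the outer Nfatc3 start and 0 times in the Ppp3r1 window and at the inner Nfatc3 start. It occurs in 7 of the 13 windows, against 61.3% of all 32851 promoter windows in the table, and 26.7% of all windows hold it at least 2 times. The AP-1 letters TGANTCA occur in 1 of the 13, at the inner Rcan1 start, against 7.81% of all windows. That window also holds the core 3 times. The Egr letters GCGNGGGCG occur in 3 of the 13 (Ppp3cb, Stim1 and the outermost Dyrk1a start), against 5.55% of all. Both strands were searched, overlapping matches were each counted, and a match describes letters only.

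Anti-TCR against mock asks how receptor engagement moves the pathway's own transcripts. Of 15 member probe sets measured, 4 were higher (3 of Nfatc1 and 1 of Ppp3r1), where 12.9% of all 7452 measured probe sets were, and 5 were lower (Nfatc2, Nfatc3, Cabin1, Stim1 and Dyrk1a), where 13.8% of all were. The median member log2 ratio was -0.60, against -0.06 over all. Read by each gene's brightest probe set, 2 of 9 genes rose and 5 fell, where 11.4% of all 5803 measured genes rose and 13.9% fell. With all probe sets of a gene averaged, dim ones included, 1 rose (Nfatc1) and 1 fell (Cabin1, which has only 1). Of the 5 that fell by brightest probe set, Cabin1, Stim1 and Dyrk1a lay just past the 2-fold limit. In these bulk pools, fewer cells of a kind and less RNA per cell cannot be told apart.

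Nfatc1, the NFAT factor known for inducing its own transcription, rose on all 3 of its probe sets. Probe set 115215_at read 342 with mock, 2236 with anti-TCR, 223 with CSA, 277 with PKCi and 820.2 with Combo. Anti-TCR stood highest, Combo came between it and mock, and CSA and PKCi lay at or under mock. Probe set 102209_at, on chip type A, read 93.9, 1340.5, 66.7, 86.5 and 449 in the same order of treatments, which is the same ranking. Probe set 106921_at read 349, 1126, 159, 364 and 1250.2, so here Combo lay above anti-TCR. The rises over mock were 6.54-fold, 14.3-fold and 3.23-fold, or log2 ratios of 2.71, 3.84 and 1.69, each past the technical SD of 0.75. The size of the rise therefore depended on the probe set, while its direction did not.

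Nfatc2, the main NFAT protein of resting T cells, fell on its only bright probe set, 105506_at. It read 1149.9 with mock, 423 with anti-TCR, 1815 with CSA, 795 with PKCi and 438 with Combo. Anti-TCR and Combo were low, and CSA was highest. The fall was 2.72-fold (log2 ratio -1.44). The other 4 probe sets stayed under the brightness limit. Among them 93073_at was nearly flat with mock, anti-TCR and CSA (171, 159 and 165) and lower with PKCi and Combo (132 and 109). Probe set 138101_at ran the other way from 105506_at, with 23.3 with mock, 109 with anti-TCR, 37.1 with CSA, 31.6 with PKCi and 126 with Combo. The last 2, 93074_g_at and 93075_r_at, ranged from 35.4 to 84.2 and from 9.5 to 23.8. The fall of Nfatc2 thus rests on 1 probe set of 5.

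Nfatc3, another NFAT factor of T cells, fell 2.57-fold (log2 ratio -1.36) on probe set 97975_at. It read 248 with mock, 96.4 with anti-TCR, 232 with CSA, 249 with PKCi and 199.7 with Combo. Anti-TCR was lowest, and the 4 others lay between 199.7 and 249. The anti-TCR and Combo values are both under the brightness limit of 204.4, so the distance between them was not read. Probe set 111714_at, short of the brightness limit of 278 in every treatment, read 203, 129.7, 225, 258 and 183, with anti-TCR again lowest. Probe set 102050_at was dark throughout (3.7 to 6.0).

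**Figure D1:**
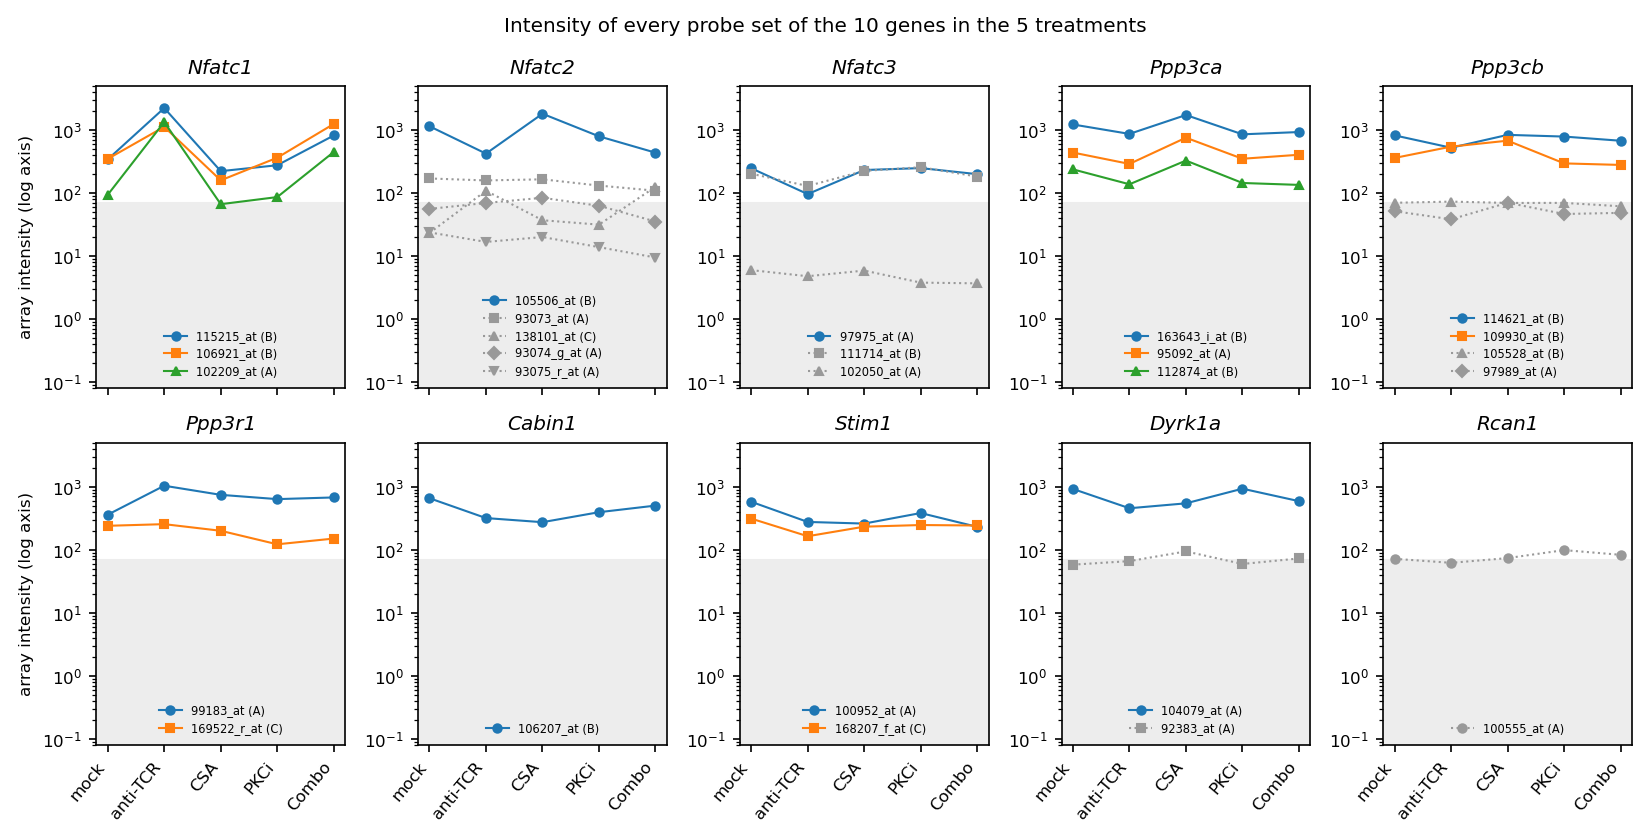
Array intensity (log axis) of all 26 probe sets of the 10 genes in mock, anti-TCR, CSA, PKCi and Combo, 1 array per point, with the chip type in brackets. Coloured lines are the 16 probe sets bright with at least 1 treatment, dotted grey lines the 10 others, and the grey band ends at 69.5, the highest of the floors; the 3 Nfatc1 lines peak with anti-TCR or Combo, the bright Nfatc2 line is low with both, and the bright Nfatc3 line is low with anti-TCR.

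Among the calcineurin subunits, transcripts of the catalytic chains stayed within the 2-fold limit with anti-TCR. Ppp3ca, which encodes the alpha catalytic chain, read 439.9 with mock, 290.4 with anti-TCR, 757 with CSA, 351 with PKCi and 406 with Combo on probe set 95092_at. Probe set 163643_i_at, which is i-suffixed, read 1227, 869, 1733, 856 and 930.1, and 112874_at read 238, 138, 328, 145 and 135. On all 3 the CSA array was the highest and mock the next. The log2 ratios of anti-TCR to mock were -0.60 and -0.50 on the 2 that were measured. Ppp3cb, the beta catalytic chain, gave opposite signs on its 2 bright probe sets: 114621_at read 824, 524, 839, 788 and 677 (log2 ratio -0.65 for anti-TCR), and 109930_at read 361, 546, 679, 296 and 279.7 (0.60). Both ratios lie inside the technical SD of 0.75. Its other 2 probe sets read between 38.4 and 73.3.

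Ppp3r1, the regulatory B chain that catalytic calcineurin needs, rose 2.88-fold (log2 ratio 1.53) on probe set 99183_at. It read 359 with mock, 1035 with anti-TCR, 742 with CSA, 634 with PKCi and 675 with Combo, so that all 4 stimulated arrays lay above mock. Probe set 169522_r_at, r-suffixed and on chip type C, read 239, 254, 199.6, 122 and 150.2, with mock and anti-TCR level (0.09). The rise of Ppp3r1 was seen on 1 of its 2 probe sets.

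Of the regulators, Cabin1, a large calcineurin-binding repressor, read 656 with mock, 317.5 with anti-TCR, 273 with CSA, 393.5 with PKCi and 501 with Combo on its single probe set (log2 ratio -1.05 for anti-TCR). Mock was highest and every stimulated array lower. Stim1, the calcium sensor of the endoplasmic reticulum, read 576, 276, 259.7, 382 and 230.1 on 100952_at (-1.06). On the f-suffixed 168207_f_at it read 311, 164, 232, 246 and 242 (-0.93), also highest with mock. Dyrk1a, the NFAT kinase, read 920.2, 455, 544, 929 and 589 on 104079_at (-1.02), highest with PKCi and mock. On that probe set no step between neighbouring treatments exceeded the technical SD. The second Dyrk1a probe set read between 57.9 and 94.0. These 3 falls exceed the technical SD of 0.75 by little, and those of Stim1 and Dyrk1a lost the call under median scaling (-0.98 and -0.94). Rcan1, a calcineurin inhibitor whose short form is a known calcineurin target, read 71.7, 61.9, 73.6, 98.5 and 82.9. None reached 204.4, so no change of Rcan1 could be read in either direction.

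Adding CSA to anti-TCR addresses how a calcineurin block moves the same transcripts. Of 16 member probe sets measured, 4 were higher (Nfatc2, Nfatc3 and 2 of Ppp3ca), where 5.12% of all 7015 were, and 3 were lower (all 3 of Nfatc1), where 5.70% of all were. The member median was 0.29, against 0.02 over all. The comparison shares its anti-TCR array with the one above. Nfatc1 fell 10.03-fold on 115215_at, 7.06-fold on 106921_at and 20.1-fold on 102209_at (log2 ratios -3.33, -2.82 and -4.33; technical SD 0.48). Nfatc2 rose 4.29-fold (2.10) and Nfatc3 2.41-fold (1.27). Ppp3ca rose 2.61-fold on 95092_at (1.38) and 2.38-fold on 112874_at (1.25), while 163643_i_at reached 1.99-fold (0.996), just short of the limit. By brightest probe set, which for Ppp3ca is 163643_i_at, 2 of 9 genes rose and 1 fell, where 4.84% of all 5453 genes rose and 5.34% fell. With averaged probe sets 1 rose, Ppp3ca, and neither Nfatc2 nor Nfatc3 did. Cabin1 (-0.22), Stim1 (-0.09 and 0.50), Dyrk1a (0.26), Ppp3cb (0.68 and 0.31) and Ppp3r1 (-0.48 and -0.35) stayed within 2-fold.

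PKCi against anti-TCR alone lowered Nfatc1 as well. Of 15 measured, 2 were higher (Nfatc3 and Dyrk1a), against 14.4% of all 7469 probe sets, and 4 were lower (3 of Nfatc1 and the r-suffixed one of Ppp3r1), against 10.5% of all. The member median was 0.27 and that of all 0.02. By brightest probe set 2 of 9 genes rose and 1 fell, where 14.3% of all 5793 genes rose and 9.75% fell. With averaged probe sets 0 rose. Nfatc1 fell 8.08-fold, 3.09-fold and 15.5-fold on 115215_at, 106921_at and 102209_at. Nfatc3 rose 2.59-fold (log2 ratio 1.37) and Dyrk1a 2.04-fold (1.03), and Nfatc2 reached 1.88-fold (0.91). Ppp3ca stayed near anti-TCR with PKCi (-0.02 and 0.27), where 2 of its 3 probe sets had risen with CSA. Ppp3r1 fell 2.09-fold on 169522_r_at (-1.06) and gave -0.71 on 99183_at, and Ppp3cb again gave opposite signs (0.59 and -0.88).

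Of the 3 inhibitor treatments, Combo moved the fewest member probe sets from anti-TCR alone. Of 14 measured, 0 were higher, against 8.08% of all 7244, and 2 were lower (both Nfatc1), against 5.85% of all; the medians were 0.07 and 0.02. By brightest probe set 0 of 8 genes rose and 1 fell, where 7.95% of all 5621 genes rose and 5.46% fell. With averaged probe sets 0 fell. Nfatc1 fell 2.73-fold on 115215_at and 2.98-fold on 102209_at and stayed level on 106921_at (log2 ratio 0.15), so its 3 probe sets differed here. Nfatc2 stayed level (438 against 423, 0.05). Nfatc3 read 96.4 and 199.7 (2.07-fold), but 199.7 lies under the brightness limit of 204.4 and the probe set was not counted. Cabin1 (0.66), Dyrk1a (0.37), Stim1 (-0.26 and 0.57) and Ppp3r1 (-0.62 and -0.76) did not pass the limit. Ppp3cb on 109930_at came closest (-0.965), past the technical SD of 0.55, and passed 2-fold under median scaling (-1.02). The other bright Ppp3cb probe set, 114621_at, gave the opposite sign (0.37).

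**Figure D2:**
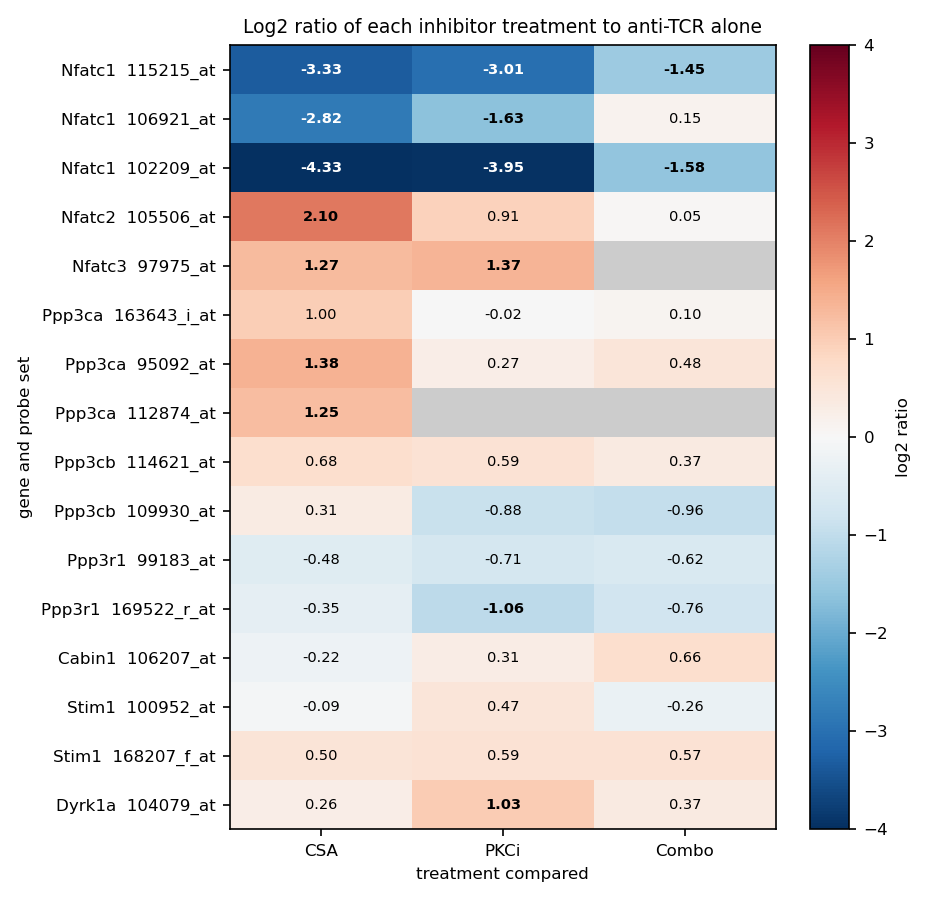
Log2 ratio of CSA, PKCi and Combo to anti-TCR alone for the 16 bright probe sets (rows), with ratios of at least 2-fold in bold and grey where neither array reached 4 times the floor. Nfatc1 is blue with CSA and PKCi on all 3 probe sets, and Nfatc2, Nfatc3 and Ppp3ca are red with CSA.

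Against mock, the inhibitor arrays show how far each transcript lay from the mock level. These comparisons share the mock array. No array had an inhibitor without anti-TCR. What was left of a change with anti-TCR and an inhibitor's own effect therefore cannot be told apart. With CSA, 1 of 15 measured was higher (Ppp3r1 on 99183_at, 2.07-fold), against 10.2% of all 7309, and 3 were lower (Nfatc1, Cabin1 and Stim1), against 7.77% of all. The other Ppp3r1 probe set, 169522_r_at, lay under mock within the limit (log2 ratio -0.26). Nfatc1 lay under mock on 106921_at (log2 ratio -1.13, technical SD 0.66) and at -0.62 on 115215_at. Cabin1 (-1.26) and Stim1 (-1.15 on 100952_at) were at or below their anti-TCR values with CSA (-1.05 and -1.06). The other bright Stim1 probe set, 168207_f_at, lay nearer to mock with CSA (-0.43) than with anti-TCR (-0.93). Nfatc3 was back at mock (-0.10). Nfatc2 (0.66) and Ppp3ca (0.50, 0.78 and 0.46) lay above mock by less than 2-fold; of these only the 0.78 exceeded the technical SD.

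With PKCi against mock, 0 of 14 measured were higher, against 8.06% of all 7235, and 0 were lower, against 3.72% of all. Nfatc1 read -0.31 and 0.06, Nfatc3 0.01 and Dyrk1a 0.01 on the log2 scale. The furthest from mock were the r-suffixed probe set of Ppp3r1 (-0.97) and its other probe set (0.82), which point in opposite directions. Cabin1 (-0.74) and Stim1 (-0.59 and -0.34) lay below mock within the limit. With Combo against mock, 3 of 15 were higher (all of Nfatc1, by 2.40-fold, 3.58-fold and 4.79-fold), against 9.63% of all 7371. Lower were 2 (Nfatc2, 2.63-fold, and Stim1 on 100952_at, 2.50-fold), against 6.06% of all. The other bright Stim1 probe set, 168207_f_at, gave -0.36, inside the technical SD of 0.70. The log2 ratio of Combo to mock was 46.6%, 109% and 58.9% of that of anti-TCR for Nfatc1 on 115215_at, 106921_at and 102209_at. It was 96.6% for Nfatc2 and 23.0% for Nfatc3. With PKCi it was 36.9% for Nfatc2. With Combo, Nfatc2 thus lay with anti-TCR on its only bright probe set. Nfatc1 lay between mock and anti-TCR or with anti-TCR, depending on the probe set. Nfatc3 lay near mock, but its anti-TCR and Combo values are both under the brightness limit, so its distance from anti-TCR was not read.

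**Figure D3:**
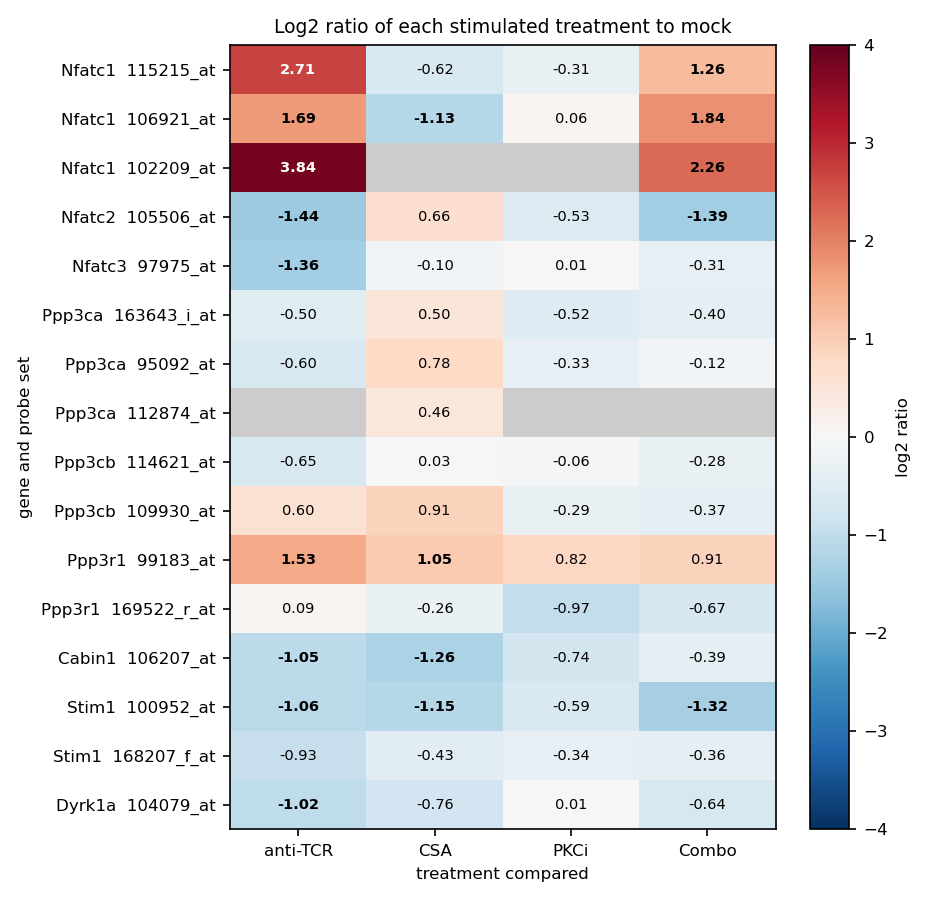
Log2 ratio of anti-TCR, CSA, PKCi and Combo to mock for the 16 bright probe sets (rows), with ratios of at least 2-fold in bold and grey where neither array reached 4 times the floor. The PKCi column holds no bold value, while the anti-TCR and Combo columns are red for Nfatc1 and blue for Nfatc2 and Stim1.

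The order of the 5 treatments can be read only in part. For Nfatc1 on 115215_at and 102209_at, the steps from mock to Combo (1.26 and 2.26) and from Combo to anti-TCR (1.45 and 1.58) exceeded the technical SD. PKCi and mock did not differ beyond it on 115215_at. The step from CSA to PKCi on both probe sets, and that from PKCi to mock on 102209_at, join values under the brightness limit and were not read. On the third Nfatc1 probe set, 106921_at, the steps from CSA to mock (1.13) and from PKCi to anti-TCR (1.63) exceeded the technical SD. There Combo lay above anti-TCR by 0.15, which did not exceed it. For Nfatc2, among steps between neighbours, only that from Combo to PKCi (0.86) exceeded the technical SD. Anti-TCR and Combo lay below this step and PKCi, mock and CSA above it. Treatments on the same side need not be alike, since only neighbours were compared: PKCi read 795 and CSA 1815. For Nfatc3 no step between neighbours among Combo, CSA, mock and PKCi exceeded the technical SD. The step from anti-TCR to Combo (1.05) joins values that are both under the brightness limit, while the technical SD comes from measured probe sets, so it was not read. No neighbouring pair of treatments differed beyond the technical SD for Cabin1, for Dyrk1a, for Stim1 on 100952_at or for Ppp3cb on either bright probe set.

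Other genes of the pathway were read from their brightest probe sets, in 8 lists. Their counts stand beside the gene shares given above, 11.4% higher and 13.9% lower with anti-TCR, 4.84% and 5.34% with CSA, 14.3% and 9.75% with PKCi, and 7.95% and 5.46% with Combo. Of 5 calcium release and entry genes measured with anti-TCR, 1 rose and 2 fell (median -0.97), against a median of -0.08 over all genes. The calcium-activated potassium channel Kcnn4, which keeps the membrane polarised for calcium entry, rose from 446 to 2313. The inositol trisphosphate receptor Itpr2 (i-suffixed) fell from 875 to 299.6 and the channel subunit Orai2 from 413.5 to 155. With CSA 0 of 5 rose and 0 fell (median 0.30, all genes 0.03). With PKCi 2 of 6 rose and 0 fell (median 0.82, all genes 0.03), Orai2 (log2 ratio 1.17) and the phospholipase Plcg1 (1.09). With Combo 1 of 6 rose and 0 fell (median 0.70, all genes 0.02), the channel Trpm4 (1.29). Stim1 and Orai2 thus were both lower with anti-TCR.

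Of the calcium removal list 2 genes were measured, and they moved in opposite directions. The plasma membrane pump Atp2b1 read 438 with mock, 1423 with anti-TCR, 838 with CSA, 290.5 with PKCi and 655 with Combo; it rose with anti-TCR (1.70) and fell with PKCi (-2.29) and Combo (-1.12). The reticulum pump Atp2a3 read 560.1, 254.5, 249, 662 and 427; it fell with anti-TCR (-1.14) and rose with PKCi (1.38). With CSA 0 of the 2 changed. The list's medians were 0.28, -0.40, -0.46 and -0.19 for anti-TCR, CSA, PKCi and Combo.

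Calmodulin and its kinases gave 0 up and 0 down of 4 with anti-TCR (median -0.19). Camk2g, a subunit of the kinase CaMKII, fell with CSA (-1.15; 707 to 319), which made 1 of 4 (median -0.37). Camk4, a nuclear calmodulin kinase, rose with PKCi (1.16; 320.0 to 715), also 1 of 4 (median -0.16), and 0 of 4 changed with Combo (median -0.31). Other calcineurin subunits and regulators gave 1 up and 0 down of 6 with anti-TCR (median 0.13), the immunophilin-like Fkbp8, which read 60.2 with mock, 494 with anti-TCR, 406 with CSA, 756 with PKCi and 647 with Combo. In the 3 inhibitor comparisons 0 of 5 changed (medians -0.07, 0.45 and 0.11). Ppp3cc, the gamma catalytic chain, read 349, 202, 294, 287 and 218, and Rcan2 (r-suffixed) and Rcan3, relatives of Rcan1, gave 0.57 and 0.50 with anti-TCR.

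Immunophilins are the receptors of cyclosporin and rapamycin and their relatives. With anti-TCR 0 of 7 rose and 1 fell (median 0.13), Fkbp3 (-1.32). With CSA 1 of 6 rose (median 0.39), Fkbp5 (1.05; 412 to 849.5), and with PKCi and Combo 0 of 7 and 0 of 6 changed (medians -0.11 and -0.19). The rapamycin receptor Fkbp1a read between 1309 and 1752. NFAT kinases and nuclear transport genes gave 0 up and 1 down of 10 with anti-TCR (median -0.15), the kinase Mapk9 (-1.12). With CSA 0 of 10 changed (median 0.08). With PKCi 2 of 11 rose (median 0.35), Dyrk2 (1.32) and, on an s-suffixed probe set, Mapk14 (1.10), where 14.3% of all genes rose. With Combo 2 of 11 rose, the nuclear exporter Xpo1 (1.26) and Mapk14 (1.03), and 1 fell, Csnk1d (-1.11, r-suffixed), with a median of 0.42. Dyrk2, a relative of Dyrk1a, read 397 with PKCi and 159 with anti-TCR.

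Other NFAT proteins and nuclear partners rose with anti-TCR in 5 of 11 cases and fell in 1 (median 0.50), where 11.4% of all genes rose and 13.9% fell (median -0.08). The AP-1 subunits Fosl2 (4.21) and Junb (3.35, i-suffixed) were the highest, and Irf2bp2, known in human cells as a repressor of NFAT, fell from 667 to 141 (-2.24); Nfat5, a relative that calcineurin does not regulate, read -0.34. With CSA 1 of 10 rose, Irf2bp2 (1.23), and 3 fell, Irf4 (-2.50), a factor that joins AP-1 on DNA, Jund (-2.09) and Fos (-1.56), with a median of -0.34, where 4.84% of all genes rose and 5.34% fell (median 0.03). With PKCi 1 of 10 rose and 4 fell (median -0.60), where 14.3% of all rose and 9.75% fell. Irf2bp2 (1.61) and Jund (0.45, short of 2-fold) were highest, and Irf4 (-3.33) and Fos (-2.85, with PKCi at the floor) lowest. With Combo 2 of 11 rose, Irf2bp2 (1.78) and Batf (1.41), and 2 fell, Fosb (-1.77) and Fos (-1.21), with a median of -0.69, where 7.95% of all rose and 5.46% fell. Irf2bp2, low with anti-TCR alone, thus rose in all 3 inhibitor comparisons, which share that array.

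Genes known as NFAT targets in T cells rose in 17 of 22 cases with anti-TCR and fell in 2 (median 3.06), where 11.4% of all genes rose and 13.9% fell (median -0.08). The nuclear receptor Nr4a3 (6.06) and the zinc finger factor Egr2 (6.02) were highest, and the cytokine Tnf (-1.33) and the diacylglycerol kinase Dgka (-1.27) lowest. With CSA 15 of 22 fell and 1 rose (median -1.32), against 5.34% and 4.84% of all genes (median 0.03), from the chemokines Xcl1 (-5.60) and Ccl1 (-5.28) to Tnf (2.75), with Il2ra at 0.66. With PKCi 16 of 22 fell and 3 rose (median -2.51), against 9.75% and 14.3% of all (median 0.03), with Egr2 (-6.02) and Egr3 (-5.92) lowest and Ctla4 (2.12) and Dgka (1.496) highest. With Combo 8 of 21 fell and 1 rose (median -0.55), against 5.46% and 7.95% of all (median 0.02), with Ccl1 (-4.28) and Xcl1 (-4.13) lowest and Tnf (3.75) and Ctla4 (0.97) highest. The list was drawn up with earlier results of these arrays known, so its direction is no independent evidence. Egr2 with mock and PKCi, and Ccl1 and Xcl1 with mock, CSA and PKCi, read below the floor. Their ratios of anti-TCR to those arrays are therefore lower bounds in size.

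**Figure D4:**
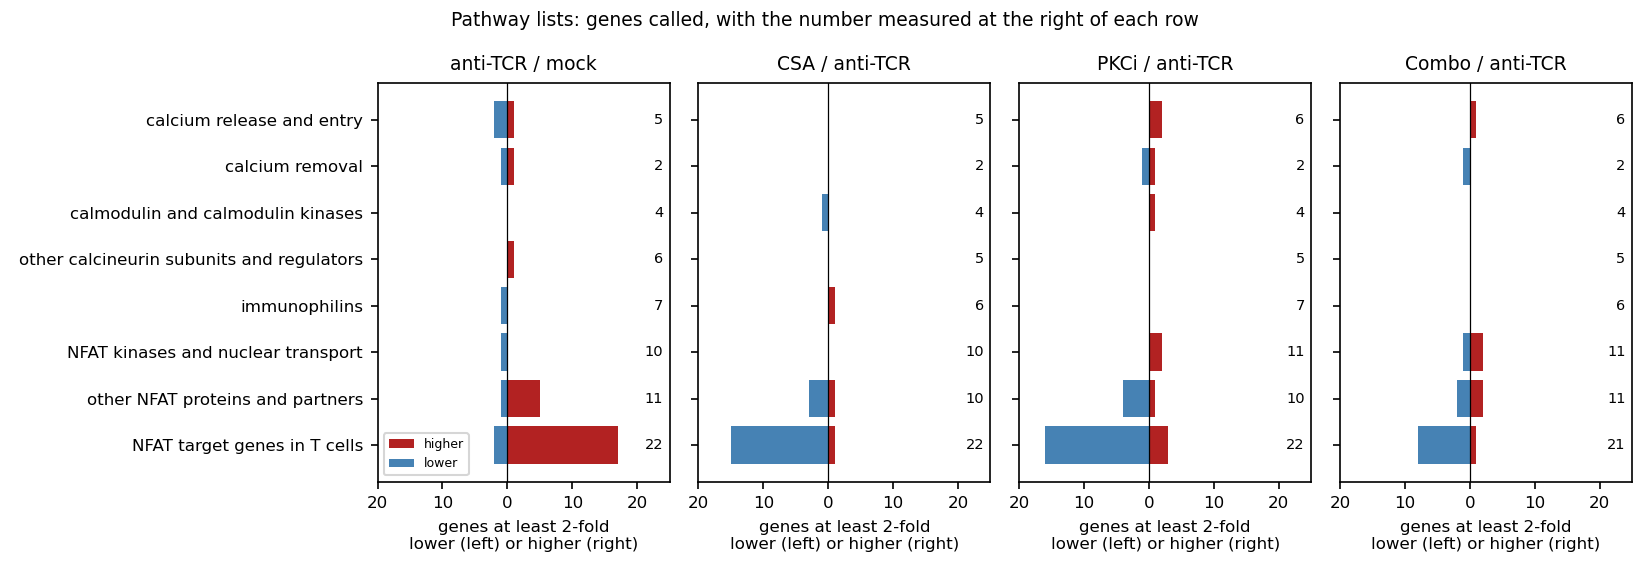
Number of genes at least 2-fold lower (bars to the left) or higher (bars to the right) in 8 pathway lists, for anti-TCR against mock and for CSA, PKCi and Combo against anti-TCR, with the number measured at the right of each row. The NFAT target list has the longest bars, 17 of 22 higher with anti-TCR and 15, 16 and 8 lower with the inhibitors, while the 6 lists from calcium release to NFAT kinases hold 0 to 2 genes in each direction.

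The genes with the most similar pattern were sought for each member that rose or fell with anti-TCR, among 4945 bright genes on unsuffixed probe sets. The measure is the root mean square distance between 5 log2 values, 1 per treatment, each centred on its gene's mean; the points share the same 5 RNA pools. Nearest to Nfatc1 were Gramd1b (0.24), Abtb2 (0.31), Ksr1 (0.33) and Ptger2 (0.33), all highest with anti-TCR with Combo next. Gramd1b, for example, read 88.3 with mock, 816 with anti-TCR, 73.6 with CSA, 63.5 with PKCi and 198 with Combo. Nearest to Nfatc2 were the phosphate transporter Slc20a1 (0.18; 789, 340.3, 1806, 619.7 and 323 in that order), AA467197 (0.19), Tmem135 (0.27) and Rasa1 (0.27), all highest with CSA. Nearest to Nfatc3 were Smad7 (0.08), Kdm6a (0.10), Brd8 (0.11) and Slc6a17 (0.11).

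For Ppp3r1 the nearest were Alg10b (0.08), Nup98 (0.09), Hivep2 (0.09) and Txndc5 (0.09). For Cabin1 they were Serinc3 (0.09), Lep (0.12), Ap5z1 (0.13) and Poglut1 (0.14), and for Stim1 Hs3st3b1 (0.08), Arhgap31 (0.10), Mier1 (0.10) and Arhgdib (0.12). Dyrk1a had the closest matches, Eif4e3 (0.03), Accs (0.04), Zfp871 (0.04) and Ccdc186 (0.04). Eif4e3 read 1071 with mock, 548 with anti-TCR, 626 with CSA, 1065 with PKCi and 690.5 with Combo, highest with mock and PKCi, as Dyrk1a was. The nearest genes to Nfatc1 and Nfatc2 lay further off than those of the other 5 members. The distance is not scaled to the size of a gene's changes, which were widest for Nfatc1 and Nfatc2. It therefore does not rank how distinctive the patterns are.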

How the data were processed

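Array intensity values were used as the authors deposited them: linear, with 0 values below 0, and with 2% trimmed means that differ by at most 0.232%, 0.242% and 0.153% within chip types A, B and C. The sources used here do not give how the arrays were scaled, and no detection calls were used. Groups came from the array titles, and depth per array has no meaning here beyond brightness: the number of arrays limits the precision. Of 36701 probe sets, 29131 carry 1 symbol in the platform annotation, 724 several and 6846 none; the last 2 kinds were left out. Suffixes such as _r, _i, _f, _s and _g mark designs with shared sequence or relaxed rules. All 7 comparisons were computed over all probe sets with Python 3.11.15, NumPy 2.4.6, pandas 2.3.3 and Matplotlib 3.10.9, and checked on data with planted changes. For the technical SD, log2 ratios of a gene's measured probe sets on different chip types were subtracted, over 792 to 867 pairs, and the SD of these differences was divided by the square root of 2. List and similarity analyses used each gene's probe set of highest mean; the text names the list genes that changed, or the 2 highest and 2 lowest where more than 4 did, and the 4 nearest genes. The members, lists, thresholds and naming rule were chosen with earlier results of these data known.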

Additional observations from a re-analysis of the deposited data

How the results depend on the processing

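No paired analysis was possible because no treatment has a second array of a chip type and the titles carry no replicate number. Over 875 values of the 104 member log2 ratios under other settings, 0 of the 33 ratios of at least 2-fold changed sign. Of the smaller ratios 6 did, none over 0.12 in size before or 0.074 after. Changing the minimum or leaving out suffixed probe sets cannot alter a ratio. A lower floor cannot alter these ratios either, because their values all lie above the floor. Those settings could not change a sign, so the 0 of 33 is little evidence of robustness. Of all 104 ratios, 1 moved by more than the technical SD (Nfatc1 on 102209_at with CSA, -3.71 with 2 times the floor). Of the 33, 2 dropped under 2-fold, both with median scaling, which left 3 member probe sets lower with anti-TCR in place of 5. Median scaling also made 1 higher with Combo against anti-TCR in place of 0, as did a minimum of 2 times the floor and no minimum (1 and 1). It made 3 lower there in place of 2 (Ppp3cb on 109930_at, -1.02), and 4 higher with Combo against mock in place of 3 (Ppp3r1 on 99183_at, 1.10). A minimum of 8 times the floor left 2 higher with CSA and 1 higher with PKCi against anti-TCR. With probe sets averaged within each gene in place of the brightest, member genes numbered 1 higher and 1 lower for anti-TCR against mock, 1 higher for CSA, 0 higher for PKCi and 0 lower for Combo against anti-TCR, and 0 higher and 1 lower for CSA and 0 lower for Combo against mock. That average takes in every probe set of a gene, also those that never reached the brightness limit. What this did to the counts was not tested. Over all probe sets, 1987 were at least 2-fold apart for anti-TCR against mock, 3060 with a minimum of 2 times the floor or none and 1135 with 8 times; fewer probe sets are tested at a higher minimum. In the same order the numbers were 759, 1348 and 431 for CSA, 1863, 2872 and 1057 for PKCi, and 1009, 1853 and 529 for Combo against anti-TCR. Against mock they were 1316, 2189 and 719 for CSA, 852, 1536 and 450 for PKCi, and 1157, 1967 and 606 for Combo. Brightness limits what can be read: 10 of the 26 member probe sets, the only one of Rcan1 among them, never reached the minimum.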

Other observations

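Stim2, the second calcium sensor of the reticulum, was measured in no comparison: it read 97.7 with mock, 261.5 with anti-TCR, 209.8 with CSA, 120.7 with PKCi and 202.7 with Combo, all under its brightness limit of 278. Mock was its lowest array, whereas mock was the highest for Stim1. The potassium channel Kcna3 read 138.7, 180.2, 352.9, 147.7 and 240.8 in the same order, highest with CSA, as the bright probe sets of Ppp3ca and Nfatc2 were. It was 0.97 above anti-TCR on the log2 scale with CSA, short of 2-fold. Both genes were picked after their values were seen.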
